A study of Homo sapiens with 12 samples.

Results

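The genes described here encode 8 receptors through which myeloid cells sense chemical gradients: the formyl peptide receptors FPR1 and FPR2, and the chemokine receptors CXCR1, CXCR2, CXCR4, CCR1, CCR2 and CX3CR1. They were taken by gene symbol from the deposited table of raw read counts, in which 58735 Ensembl identifiers are listed. All 8 were present and all 8 passed the filter on low counts, as did 15060 genes in total. The cells were OCI-AML2, an established human line of acute myeloid leukemia, grown in RPMI medium with serum. Cells had received by lentivirus the control guide sgLuc (genotype given as WT) or 1 of 2 guides against UTX, sgUTX_2 or sgUTX_4 (genotype given as UTX knockout). Each line was treated with DMSO or with SGC0946, which inhibits the histone H3K79 methyltransferase DOT1L, at 1 µM, and was collected on day 6. This gave 6 groups of 2 libraries, 12 in all. The labels do not say whether a line is a clone or a pool, nor whether the libraries of 1 group are separate cultures. The p-values below therefore cover the spread between libraries, which can be technical.

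These receptors cross the membrane 7 times and signal mainly through inhibitory G proteins. The released beta-gamma subunits switch on phosphoinositide 3-kinase gamma and phospholipase C beta, and the cell turns towards the source of the ligand. Kinases of the GRK family and arrestins then uncouple the receptor and take it into the cell. FPR1 and FPR2 bind formylated peptides from bacteria and mitochondria. CXCR1 and CXCR2 bind CXCL8 and are typical of neutrophils, CXCR4 binds CXCL12 and holds immature and leukemic cells in the bone marrow, and CCR1, CCR2 and CX3CR1 guide monocytes. Several of them are gained as myeloid cells mature.

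KDM6A, the gene of UTX, was measured first, as the targeted gene. Its level was 32.0 and 27.9 CPM (counts scaled to library size by TMM) in the sgLuc DMSO libraries, 14.7 and 15.6 with sgUTX_2 and 49.4 and 46.2 with sgUTX_4. It was thus lower with one guide and higher with the other, and a transcript level does not show whether the protein was lost. The libraries are therefore named after their guides. Library totals ranged from 15480493 to 23262141 counts. TMM factors were 0.854 and 0.887 in the sgLuc DMSO libraries and 0.924 and 0.934 in the sgLuc SGC0946 libraries, against 1.03 to 1.07 in the 8 sgUTX libraries. Scaling by library size alone therefore moved the median of all genes to 0.24 and 0.26 on the log2 scale for the 2 guides against sgLuc in DMSO and to 0.20 and 0.19 in SGC0946, from values between -0.02 and 0.01. Markers of myeloid cells such as PTPRC, SPI1 and CD33 were detected in every group (9 of 9, 1090 to 2210 CPM in sum), and the B cell gene MS4A1 and the red cell genes HBB and HBA1 had 0 counts in all 12 libraries.

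By position the receptor genes form pairs. On GRCh38 (GENCODE 29), FPR1 (ENSG00000171051) spans chr19:51745172-51804110 on the minus strand and encloses FPR2 (ENSG00000171049, chr19:51752026-51770526, plus strand). CXCR1 (ENSG00000163464, chr2:218162845-218166995, minus) and CXCR2 (ENSG00000180871, chr2:218125289-218137253, plus) lie 25.6 kb apart. CXCR4 (ENSG00000121966, chr2:136114349-136118165, minus) lies alone on the same chromosome. CCR1 (ENSG00000163823, chr3:46201709-46208396, minus) and CCR2 (ENSG00000121807, chr3:46353734-46360928, plus) are 145 kb apart in the chemokine receptor cluster of chromosome 3, and CX3CR1 (ENSG00000168329, chr3:39263494-39281735, minus) lies elsewhere on that chromosome. No receptor of the 8 shares an exonic base with another annotated gene, and the use of strand in counting is not given in the sources used here.

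The sequence just upstream of the start is shown for the 2 genes with the largest response to SGC0946 in sgLuc cells, FPR1 and CXCR1, and the 2 with the smallest, CXCR4 and CCR1, because the receptors rose together but over very different ranges. Sequences are from RefSeq (GRCh38.p14), all on the minus strand, 5′ to 3′, and cover the exon-free stretch of the 250 bases before the start (116 bases at chr19:51751910-51752025, which lies in an intron of FPR1 as GENCODE draws it, 217 at chr2:218166996-218167212, 234 at chr2:136118166-136118399 and 167 at chr3:46208397-46208563). Capitals mark matches on either strand to AGGAAG, which holds GGAA, the core of sites for ETS factors such as PU.1, and to TATAAA, the TATA box.
FPR1: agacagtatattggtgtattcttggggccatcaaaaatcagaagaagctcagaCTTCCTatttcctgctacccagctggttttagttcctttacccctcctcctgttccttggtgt
CXCR1: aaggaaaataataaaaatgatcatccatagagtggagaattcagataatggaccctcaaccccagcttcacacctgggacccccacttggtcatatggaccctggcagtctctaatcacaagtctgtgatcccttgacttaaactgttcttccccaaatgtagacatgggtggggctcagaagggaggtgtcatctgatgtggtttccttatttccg
CXCR4: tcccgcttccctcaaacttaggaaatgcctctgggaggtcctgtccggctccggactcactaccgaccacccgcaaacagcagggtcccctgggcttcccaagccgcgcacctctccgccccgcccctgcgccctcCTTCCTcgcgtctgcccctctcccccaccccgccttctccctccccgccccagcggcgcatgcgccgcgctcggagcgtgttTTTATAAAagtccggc
CCR1: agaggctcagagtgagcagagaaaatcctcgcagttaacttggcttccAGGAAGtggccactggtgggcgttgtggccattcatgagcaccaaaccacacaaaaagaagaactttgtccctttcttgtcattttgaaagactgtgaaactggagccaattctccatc
AGGAAG occurred in the 250 bases before the start in 6 of the 8 genes (FPR1, FPR2, CXCR2, CXCR4, CCR1 and CX3CR1), against 28.7% of 35116 RefSeq promoters. TATAAA occurred in CXCR4 only (10.7% of promoters), as overlapping matches on both strands. TGANTCA, the AP-1 motif, and TTGCNNAA, the C/EBP motif, occurred in CCR2 only (6.57% and 9.05% of promoters). AGGAAG was thus present upstream of FPR1 but not of CXCR1 among the large responders shown, and upstream of both small responders. The shorter core GGAA is not marked, and it does occur in the CXCR1 stretch. For FPR2, CXCR4 and CX3CR1, which have several listed starts, only the start farthest upstream was searched, while the shares cover every listed promoter. The windows of FPR2 and CCR2 lie wholly within annotated exons of these genes. A match is a run of letters and not a measured site.

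All 8 receptor transcripts rose with SGC0946 in sgLuc cells, and all 8 also rose with each UTX guide. CXCR1 is among them only because its SGC0946 libraries passed the filter on low counts. Among all genes tested, 26.9% rose and 26.2% fell in sgLuc cells, 14.1% rose and 13.7% fell with sgUTX_2, and 13.9% rose and 12.5% fell with sgUTX_4 (edgeR's quasi-likelihood test, Benjamini-Hochberg adjusted p under 0.05 over all 15060 genes; every edgeR adjusted p below is of this kind). The median log2 fold change of the 8 was 3.25 with sgLuc, 2.53 with sgUTX_2 and 2.33 with sgUTX_4, where the median of all genes lay between 0 and 0.01. No DMSO library of a guide reached the level of either SGC0946 library of that guide for any of the 8. The share of all genes that separate in this way was not counted, so this says nothing particular to the 8.

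**Figure D1:**
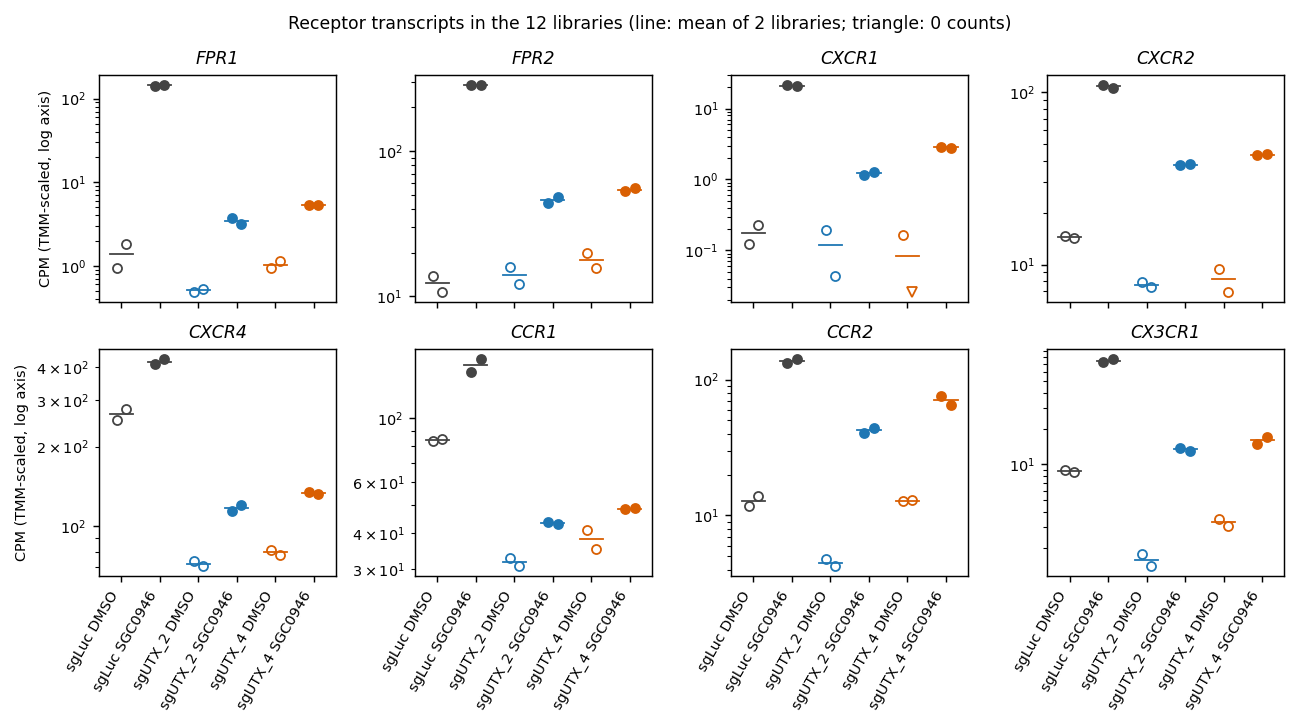
Transcript level of each receptor (CPM scaled by TMM, log axis with its own range per gene) in the 12 libraries by guide and treatment; open points are DMSO, filled points SGC0946, lines the mean of 2 libraries, and the triangle a library with 0 counts. In each panel the 2 sgLuc SGC0946 libraries are the highest, for FPR1 at 142 and 146 CPM against at most 5.38 elsewhere. The share of all genes for which these 2 libraries are the highest was not counted.

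FPR1, the high-affinity formyl peptide receptor of neutrophils and monocytes, had the largest response in sgLuc cells apart from CXCR1, whose untreated counts are few. In DMSO it stood at 0.933 and 1.82 CPM in the sgLuc libraries, 0.491 and 0.526 with sgUTX_2, and 0.937 and 1.13 with sgUTX_4. With SGC0946 it reached 142 and 146 CPM with sgLuc, but 3.74 and 3.20 with sgUTX_2 and 5.38 and 5.37 with sgUTX_4. Every treated library lay above every untreated one, and the treated sgLuc libraries lay far above all the rest. The log2 fold change was 6.75 (SE 0.15, edgeR adjusted p = 2.55e-28) with sgLuc, 2.75 (SE 0.27, adjusted p = 3.75e-10) with sgUTX_2 and 2.37 (SE 0.23, adjusted p = 2.39e-10) with sgUTX_4. In summed counts scaled for depth these are ratios of 108 (exact 95% interval 79.2 to 153), 6.79 (4.34 to 11.1) and 5.18 (3.65 to 7.54). The intervals cover counting error only, and yet each is wider than the standard error above implies, so these standard errors are too small.

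FPR2, its lower-affinity relative that also binds lipid and peptide mediators such as annexin A1 fragments, followed the same order from a higher start. The DMSO values were 13.8 and 10.8 CPM with sgLuc, 16.0 and 12.2 with sgUTX_2, and 19.8 and 15.8 with sgUTX_4, ranges that overlap between sgLuc and sgUTX_2. With SGC0946 both sgLuc libraries read 286 CPM, against 44.0 and 48.5 with sgUTX_2 and 53.0 and 55.8 with sgUTX_4. FPR2 thus rose 23.1-fold with sgLuc (log2 4.53, SE 0.12, edgeR adjusted p = 2.27e-17), 3.30-fold with sgUTX_2 (log2 1.72, SE 0.12, adjusted p = 3.71e-10) and 3.06-fold with sgUTX_4 (log2 1.61, SE 0.11, adjusted p = 9.16e-10). Of the 8, only FPR2 had a higher mean DMSO level with both UTX guides than with sgLuc (14.1 and 17.8 against 12.3 CPM), by differences given below with their tests.

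CXCR1, which binds CXCL8 with few other ligands, was close to absent without the inhibitor. It had 5 counts over the 2 DMSO libraries of sgLuc, 5 with sgUTX_2 and 3 with sgUTX_4, where one library held 0 counts, which allows up to 0.162 CPM. In CPM the DMSO libraries read 0.124 and 0.227, 0.196 and 0.0438, and 0.165 and 0. With SGC0946 the values were 21.6 and 20.6 CPM with sgLuc, 1.16 and 1.27 with sgUTX_2, and 2.89 and 2.81 with sgUTX_4. The groups did not overlap in the treated cells, and all DMSO libraries were at or near the level of 3 counts. Because of those low counts the response is given as a ratio of summed counts: 123 with sgLuc (exact 95% interval 52.6 to 381), 10.5 with sgUTX_2 (4.25 to 33.6) and 34.8 with sgUTX_4 (11.6 to 171). Each rise passed the test (edgeR adjusted p = 3.42e-17, 1.04e-05 and 2.31e-09). CXCR1 passed the filter on low counts only through its SGC0946 libraries, so that the direction of its change was partly set by the filter.

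CXCR2, the receptor for CXCL8 and the GRO chemokines, was measured at 14.7 and 14.3 CPM with sgLuc in DMSO, 7.91 and 7.36 with sgUTX_2, and 9.43 and 6.97 with sgUTX_4. SGC0946 libraries held 110 and 106 CPM with sgLuc, 37.7 and 38.1 with sgUTX_2, and 43.0 and 43.5 with sgUTX_4. CXCR2 rose 7.44-fold with sgLuc (log2 2.89, SE 0.10, edgeR adjusted p = 4.39e-23), 4.97-fold with sgUTX_2 (log2 2.31, SE 0.11, adjusted p = 1.26e-18) and 5.27-fold with sgUTX_4 (log2 2.40, SE 0.11, adjusted p = 7.19e-19). The sgLuc libraries were the highest in each treatment.

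CXCR4 was the most abundant of the 8 and changed least with the inhibitor in sgLuc cells. In DMSO it was at 252 and 278 CPM with sgLuc, 73.7 and 70.8 with sgUTX_2, and 81.2 and 78.2 with sgUTX_4. In SGC0946 it was at 411 and 428, 114 and 120, and 135 and 133 CPM in the same order of guides. Every sgUTX library, treated or not, lay below every sgLuc library. CXCR4 rose 1.59-fold with sgLuc (log2 0.67, SE 0.06, edgeR adjusted p = 2.25e-11), 1.62-fold with sgUTX_2 (log2 0.70, SE 0.06, adjusted p = 9.52e-11) and 1.68-fold with sgUTX_4 (log2 0.75, SE 0.06, adjusted p = 2.23e-11).

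CCR1, a receptor for CCL3, CCL5 and CCL23 on monocytes and neutrophils, resembled CXCR4. The DMSO libraries read 83.3 and 84.6 CPM with sgLuc, 32.8 and 30.7 with sgUTX_2, and 40.8 and 35.1 with sgUTX_4. The SGC0946 libraries read 145 and 160, 43.5 and 43.0, and 48.2 and 48.8 CPM. Again the treated sgUTX libraries stayed below the untreated sgLuc libraries. CCR1 rose 1.82-fold with sgLuc (log2 0.86, SE 0.07, edgeR adjusted p = 3.30e-12), 1.36-fold with sgUTX_2 (log2 0.45, SE 0.08, adjusted p = 4.14e-05) and 1.28-fold with sgUTX_4 (log2 0.35, SE 0.08, adjusted p = 0.000914). The last call was lost without the second sgUTX_4 DMSO library (log2 0.25, adjusted p = 0.0693).

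CCR2, the CCL2 receptor that releases monocytes from the marrow, separated the UTX guides from each other. In DMSO it read 11.8 and 13.9 CPM with sgLuc, 4.76 and 4.25 with sgUTX_2, and 12.7 and 12.9 with sgUTX_4, where the values of sgLuc and sgUTX_4 overlap. With SGC0946 it read 132 and 141, 40.1 and 44.3, and 76.2 and 65.4 CPM. CCR2 rose 10.7-fold with sgLuc (log2 3.41, SE 0.10, edgeR adjusted p = 3.91e-25), 9.37-fold with sgUTX_2 (log2 3.23, SE 0.11, adjusted p = 1.76e-21) and 5.54-fold with sgUTX_4 (log2 2.47, SE 0.10, adjusted p = 3.15e-20).

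CX3CR1, the fractalkine receptor of patrolling monocytes and of macrophages, had DMSO values of 8.96 and 8.63 CPM with sgLuc, 1.77 and 1.40 with sgUTX_2, and 3.47 and 3.03 with sgUTX_4. The SGC0946 values were 73.0 and 76.8, 13.7 and 13.1, and 14.8 and 17.1 CPM. It rose 8.51-fold with sgLuc (log2 3.09, SE 0.12, edgeR adjusted p = 1.15e-21), 8.49-fold with sgUTX_2 (log2 3.09, SE 0.16, adjusted p = 9.60e-17) and 4.92-fold with sgUTX_4 (log2 2.30, SE 0.15, adjusted p = 1.30e-14). The treated sgUTX libraries lay above the untreated and far below the treated sgLuc libraries.

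**Figure D2:**
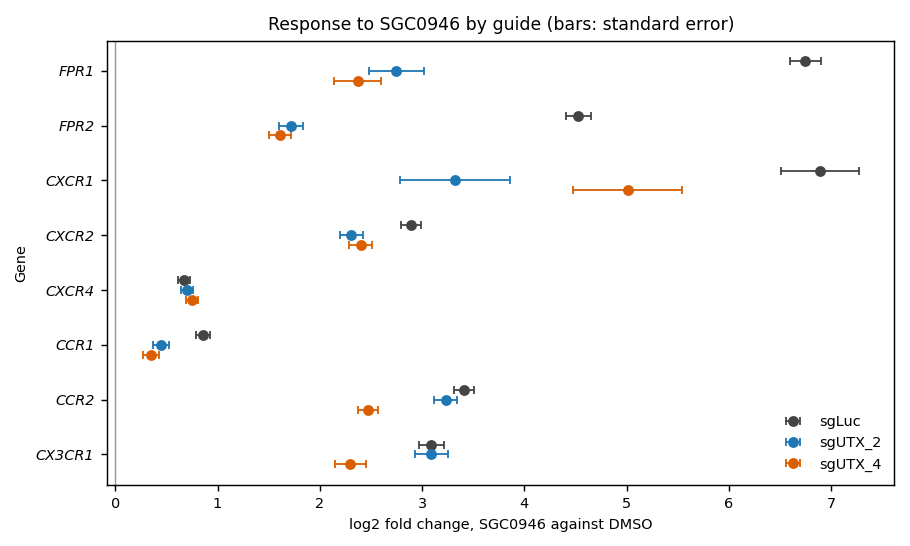
Response of each receptor to SGC0946 (log2 fold change against DMSO, point, with its standard error, bar) for sgLuc, sgUTX_2 and sgUTX_4, 2 libraries per group. The bars of FPR1 and CXCR1 are too short, as their DMSO counts are few. For FPR1 and FPR2 sgLuc stands apart from both UTX guides, while for CXCR4 all 3 guides lie close together (0.67, 0.70 and 0.75).

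Whether the response differed between guides was tested as the difference of the 2 responses. Of the 8 receptors, 5 responded less with sgUTX_2 than with sgLuc and 6 less with sgUTX_4, and none responded more. Among all genes tested, 17% were lower and 18.9% higher in this comparison for sgUTX_2, and 15.9% and 17.5% for sgUTX_4. Both comparisons use the same sgLuc libraries, as do those against sgLuc below. The difference was largest for FPR1, -4.00 (SE 0.31, edgeR adjusted p = 2.45e-08) with sgUTX_2 and -4.38 (SE 0.27, adjusted p = 5.16e-11) with sgUTX_4 on the log2 scale. For FPR2 it was -2.81 (SE 0.17, adjusted p = 1.20e-10) and -2.92 (SE 0.17, adjusted p = 6.52e-11). CXCR1 gave -3.57 (SE 0.66, adjusted p = 0.00915) with sgUTX_2, a call that was lost without the first sgUTX_2 DMSO library (-2.29, adjusted p = 0.437), and -1.88 (SE 0.65, adjusted p = 0.263) with sgUTX_4, which did not pass. The standard errors of FPR1 and CXCR1 here are built from those of the responses and are likewise too small.

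The remaining receptors differed less in their responses. CXCR2 gave -0.58 (edgeR adjusted p = 0.00234) with sgUTX_2 and -0.50 (adjusted p = 0.0106) with sgUTX_4, and the second was lost without the first sgUTX_4 DMSO library (-0.26, adjusted p = 0.286). CCR1 gave -0.42 (adjusted p = 0.00253) and -0.51 (adjusted p = 0.000339). CCR2 and CX3CR1 differed with sgUTX_4 (-0.95, adjusted p = 3.19e-06, and -0.79, adjusted p = 0.00257), but did not pass with sgUTX_2 (-0.19, SE 0.15, adjusted p = 0.412, and 0.00, SE 0.20, adjusted p = 1.00). CXCR4 did not pass with either guide (0.03 and 0.08, SE 0.09 each, adjusted p = 0.812 and 0.515). When the libraries of both UTX guides counted as replicates of 1 group, the CXCR1, CCR2 and CX3CR1 differences did not pass (-2.68, -0.68 and -0.46, adjusted p = 0.0936, 0.481 and 0.251).

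Without the inhibitor, CXCR2, CXCR4, CCR1 and CX3CR1 were lower with both UTX guides than with sgLuc. With sgUTX_2, 6 of 8 were lower and none higher, where 32.2% of all genes were lower and 28.2% higher. With sgUTX_4, 4 were lower and 1, FPR2, was higher, where 31.2% and 28.5% of all genes were lower and higher. CXCR4 and CCR1 were lower with both guides, by log2 fold changes of -1.87 (SE 0.06, edgeR adjusted p = 1.25e-22) and -1.73 (SE 0.06, adjusted p = 1.16e-21) for CXCR4 and of -1.40 (SE 0.08, adjusted p = 7.23e-17) and -1.14 (SE 0.08, adjusted p = 1.39e-14) for CCR1. CX3CR1 was lower as well, by -2.48 (SE 0.19, adjusted p = 1.13e-13) and -1.44 (SE 0.17, adjusted p = 3.96e-09), and so was CXCR2, by -0.93 (adjusted p = 6.22e-08) and -0.82 (adjusted p = 7.85e-07).

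The formyl peptide receptors and CXCR1 did not share this pattern in DMSO. FPR1 was lower with sgUTX_2 (-1.38, SE 0.37, edgeR adjusted p = 0.00147), a call lost without the second sgLuc DMSO library (-0.86, adjusted p = 0.131), and did not pass with sgUTX_4 (-0.36, SE 0.32, adjusted p = 0.346). FPR2 was 0.52 higher on the log2 scale with sgUTX_4 (SE 0.14, adjusted p = 0.00335) and at 0.18 with sgUTX_2 (SE 0.14, adjusted p = 0.288). The sgUTX_4 call for FPR2 was lost without the second sgLuc DMSO library (0.36, adjusted p = 0.0556), without the first sgUTX_4 DMSO library (0.35, adjusted p = 0.0509) and with the guides as 1 group (0.36, adjusted p = 0.106). With library size only, FPR2 passed with sgUTX_2 too (0.45, adjusted p = 0.00706). CXCR1 did not pass with either guide (-0.53, SE 0.92, and -1.01, SE 1.02), so that a difference was not detectable at this depth. CCR2 was lower with sgUTX_2 (-1.51, SE 0.14, adjusted p = 2.12e-11) and level with sgLuc with sgUTX_4 (0.00, SE 0.12, adjusted p = 0.979), where it was called higher with library size only (0.27, adjusted p = 0.0437). With the guides as 1 group neither FPR1 (-0.82, adjusted p = 0.122) nor CCR2 (-0.60, adjusted p = 0.366) passed.

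In SGC0946 all 8 receptors were lower with sgUTX_2 and all 8 with sgUTX_4 than with sgLuc. Of all genes, 29.1% were lower and 27.3% higher with sgUTX_2, and 29% and 27.3% with sgUTX_4. The median of the 8 was -2.16 with sgUTX_2 and -1.94 with sgUTX_4, against 0.01 over all genes in both. FPR1 had the largest gap, -5.38 (SE 0.12, edgeR adjusted p = 3.79e-28) and -4.74 (SE 0.12, adjusted p = 6.20e-27), followed by CXCR1 with -4.11 (SE 0.25, adjusted p = 5.62e-16) and -2.88 (SE 0.23, adjusted p = 6.17e-13). FPR2 differed by -2.63 and -2.39, CX3CR1 by -2.48 and -2.23, CXCR4 by -1.84 and -1.65, CCR1 by -1.82 and -1.66, CCR2 by -1.70 and -0.95 and CXCR2 by -1.51 and -1.32. For CXCR4 and CX3CR1 the gap to sgLuc was thus about as wide with sgUTX_2 in DMSO as in SGC0946, while for FPR1 and FPR2 most of it appeared only with the inhibitor.

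**Figure D3:**
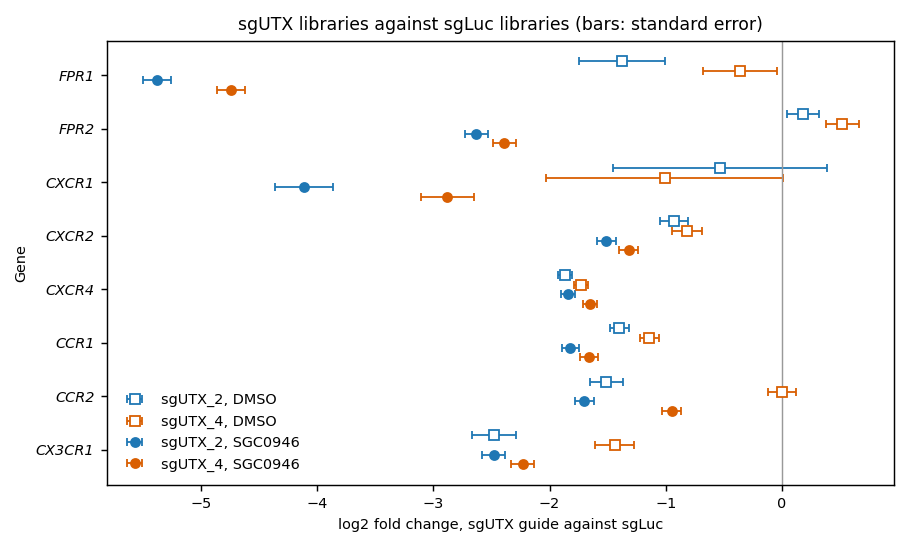
Log2 fold change of each receptor for sgUTX_2 and sgUTX_4 against sgLuc (point) with its standard error (bar), in DMSO (open squares) and in SGC0946 (filled circles), 2 libraries per group. FPR1 moves from -1.38 and -0.36 in DMSO to -5.38 and -4.74 in SGC0946, whereas CXCR4 stays between -1.87 and -1.65.

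The UTX guides differed from each other for a few receptors. In DMSO CCR2 (1.5, SE 0.14, edgeR adjusted p = 2.93e-09) and CX3CR1 (1.04, SE 0.22, adjusted p = 0.00427) were higher with sgUTX_4 than with sgUTX_2, where 1.72% of all genes were higher and 1.77% lower. In SGC0946 CCR2 (0.75, SE 0.08, adjusted p = 2.78e-07), CXCR1 (1.22, SE 0.30, adjusted p = 0.0155) and FPR1 (0.63, SE 0.17, adjusted p = 0.0274) were higher, where 1.61% of all genes were higher and 1.40% lower. No receptor was lower with sgUTX_4. CCR2 passed in both treatments and with any library left out. The CX3CR1 call was lost without the second sgUTX_2 DMSO library (0.87, adjusted p = 0.0882) or the first sgUTX_4 DMSO library (0.93, adjusted p = 0.137). The CXCR1 call was lost without any 1 of the 4 sgUTX SGC0946 libraries (1.16 to 1.29). The FPR1 call was lost without any 1 of the 6 SGC0946 libraries (0.52 to 0.75) and with only the groups compared (0.63, adjusted p = 0.0728).

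Levels of different receptors were compared per kilobase of exon (RPKM). CXCR4 was first and CXCR1 last in all 6 groups. In sgLuc DMSO cells CXCR4 was at 119 ± 8.27 RPKM (mean ± SD, n = 2 here and below), followed by CCR1 at 30.7 ± 0.322 and CXCR2 at 4.49 ± 0.0825. CCR2 (3.45 ± 0.399) and FPR2 (3.32 ± 0.586) came next and did not differ beyond their spread, and CX3CR1 (2.41 ± 0.0639), FPR1 (0.530 ± 0.241) and CXCR1 (0.0707 ± 0.0292) were the lowest. With SGC0946 the order of sgLuc cells changed: FPR2 moved from the fifth to the second place at 77.3 ± 0.0733 RPKM, and FPR1 (55.6 ± 1.06) drew level with CCR1 (55.9 ± 3.78). CXCR4 stood at 189 ± 5.43, CCR2 at 36.6 ± 1.70, CXCR2 at 33.4 ± 0.932, CX3CR1 at 20.5 ± 0.737 and CXCR1 at 8.48 ± 0.296.

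With the UTX guides FPR1 stayed in the seventh place in both treatments. In sgUTX_2 SGC0946 cells CXCR4 (52.7 ± 1.93 RPKM) and CCR1 (15.9 ± 0.132) led, and FPR2 (12.5 ± 0.861) came next. CXCR2 (11.7 ± 0.0881) and CCR2 (11.3 ± 0.796) did not differ beyond their spread. In sgUTX_4 SGC0946 cells CCR2 (19.0 ± 2.03) and CCR1 (17.8 ± 0.142) followed CXCR4 (60.2 ± 0.430) and did not differ beyond their spread. CX3CR1 was at 3.68 ± 0.114 and 4.37 ± 0.431 RPKM, FPR1 at 1.34 ± 0.147 and 2.07 ± 0.00416, and CXCR1 at 0.489 ± 0.0325 and 1.15 ± 0.0222. Summed over the 8, receptor transcripts went from 158 to 170 RPKM in sgLuc DMSO libraries to 468 to 485 with SGC0946. The sums went from 50.4 to 54.0 to 107 to 112 with sgUTX_2, and from 59.2 to 64.5 to 132 to 133 with sgUTX_4. CXCR4 made up 71.6% to 73.4% of the sum in sgLuc DMSO libraries and 39.5% to 39.7% with SGC0946.

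The patterns of the receptors over the 12 libraries were compared by the root mean square difference of their log2 CPM, each centred on its own mean, in which 0 means the same pattern. CXCR4 and CCR1 were the closest pair (0.200), then CXCR2 with CCR2 (0.516) and with CX3CR1 (0.555). CXCR1 and CCR1 were the farthest apart (2.04). Neighbours in the genome were not the closest in pattern: CXCR1 and CXCR2 differed by 1.21, FPR1 and FPR2 by 1.16 and CCR1 and CCR2 by 1.31. Among 12748 other genes that averaged 1 CPM or more, the nearest to FPR1 were CD14, the lipopolysaccharide co-receptor (0.547), and ITGAM, an integrin chain of myeloid cells (0.551). The nearest to FPR2 were CLEC4E, a C-type lectin (0.299), and PTGS2, an inducible cyclooxygenase (0.301), and to CXCR1 the kinase gene LRRK2 (0.493) and the scavenger receptor CD36 (0.579). For CXCR2 they were QPCT, a glutaminyl cyclase (0.135), and TRIM22 (0.251), for CXCR4 AC106865.1 (0.0833) and SYT11 (0.109), and for CCR1 EVI2B (0.0657) and the signalling adaptor TYROBP (0.118). CCR2 was nearest to CD200R1, an inhibitory receptor (0.291), and GPR141 (0.419), and CX3CR1 to TMEM92 (0.281) and IFITM1 (0.325).

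Other genes of the same pathway were taken from 5 lists. Over all genes tested, 26.9% rose and 26.2% fell with sgLuc, 14.1% and 13.7% with sgUTX_2, and 13.9% and 12.5% with sgUTX_4. Of 17 other chemokine receptors only 6 had enough counts, and 5 of them rose with SGC0946 in sgLuc cells, 4 with sgUTX_2 and 1 with sgUTX_4, with medians of 2.24, 1.76 and 1.30 (1.44 in place of 1.76 with genes at 0 counts put at their bound). The last count was 4 with the guides as 1 group, and 2 without any 1 of the 4 sgUTX DMSO libraries. CXCR3 and CCR3, named here for their counts, passed the filter only through sgLuc SGC0946. They had 60 and 152 counts there, against at most 6 and 21 in any other group. Their rise in sgLuc cells was thus partly set by the filter. Among them CCR3, the eotaxin receptor whose gene spans CCR1, went from 0.674 ± 0.631 to 4.40 ± 0.182 CPM (mean ± SD, n = 2) in sgLuc cells (log2 2.63, edgeR adjusted p = 2.76e-05) and had log2 values of 0.63 and 0.23 with the UTX guides, which did not pass. CCRL2, a receptor that presents chemerin and does not signal, rose by 2.53, 1.44 and 1.33 with sgLuc, sgUTX_2 and sgUTX_4 (edgeR adjusted p = 7.63e-09, 0.00173 and 0.00714). The scavenger receptor ACKR2, of whose exonic bases 25.2% are shared with other genes, rose by 1.95 and 2.88 and gave 1.34 with sgUTX_4 (edgeR adjusted p = 0.0755). Its difference of responses did not pass with either guide (0.92 and -0.62, adjusted p = 0.423 and 0.581). The CXCL12 scavenger ACKR3 is named after its values were seen. It gave -0.01 with sgLuc (adjusted p = 0.992), rose by 3.03 with sgUTX_2 (adjusted p = 0.00191) and gave 1.28 with sgUTX_4 (adjusted p = 0.242), with a difference of responses of 3.04 (adjusted p = 0.00934) for sgUTX_2.

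Of 13 other chemoattractant receptors 10 were tested, and 9 rose with sgLuc, 2 with sgUTX_2 and 2 with sgUTX_4, with medians of 1.41, 0.18 and 0.08 on the log2 scale. None fell. Over all genes 26.9% rose with sgLuc, 14.1% with sgUTX_2 and 13.9% with sgUTX_4, so the counts with the UTX guides lie near these shares. PTGDR2, named here for its counts, passed the filter only through sgLuc SGC0946, with 71 counts there against at most 14 in any other group. Its rise in sgLuc cells was thus partly set by the filter. The sgUTX_2 count was 1 without the first sgUTX_2 DMSO library and 1 with DESeq2, the sgUTX_4 count was 1 without either sgUTX_4 DMSO library or the second sgUTX_4 SGC0946 library, and each was 4 with the guides as 1 group. C5AR1, the receptor of complement C5a, went from 3.22 ± 0.687 to 58.2 ± 2.59 CPM with sgLuc (log2 4.19, edgeR adjusted p = 1.20e-20), but was at 5.67 ± 0.325 and 4.77 ± 0.0644 CPM with sgUTX_2 (-0.25, adjusted p = 0.341) and at 4.88 ± 0.586 and 4.48 ± 1.61 with sgUTX_4 (-0.11, adjusted p = 0.745). The difference of responses for C5AR1 was -4.44 (adjusted p = 1.71e-15) and -4.30 (adjusted p = 2.39e-14), of the same order as for FPR1. C3AR1, the C3a receptor, rose by 1.64 with sgLuc and gave 0.07 and 0.11 with the UTX guides (differences -1.56 and -1.53, adjusted p = 6.61e-10 and 1.76e-09). The decoy receptor C5AR2 rose by 1.94 with sgLuc and by 0.99 with sgUTX_4, and OXER1, which senses an eicosanoid, rose by 1.54 with sgLuc. OXER1 gave 1.07 with sgUTX_2 (edgeR adjusted p = 0.171) and 1.54 with sgUTX_4 (adjusted p = 0.0546), and the difference of responses did not pass (-0.47 and 0.00, adjusted p = 0.699 and 0.998).

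Of 23 ligands 13 were tested, and 9 rose and 2 fell with sgLuc, against 7 and 1 with either UTX guide (medians 1.93, 1.12 and 1.25). CAMP and CXCL2, named here for their counts, had at most 14 and 19 counts in a DMSO group. They passed the filter only through SGC0946 libraries, so that their direction was partly set by the filter. Over all genes 26.9% rose and 26.2% fell with sgLuc, 14.1% and 13.7% with sgUTX_2, and 13.9% and 12.5% with sgUTX_4. CCL2, the ligand of CCR2, went from 2.37 ± 0.617 to 87.1 ± 2.82 CPM with sgLuc, from 1.08 ± 0.142 to 8.46 ± 0.115 with sgUTX_2 and from 2.29 ± 0.110 to 8.05 ± 1.92 with sgUTX_4 (log2 5.22, 2.95 and 1.82, edgeR adjusted p = 1.80e-24, 1.27e-13 and 2.29e-09). CXCL8, which binds CXCR1 and CXCR2, went from 86.8 ± 3.80 to 578 ± 15.5 CPM, 68.5 ± 1.97 to 140 ± 8.63 and 68.8 ± 2.49 to 137 ± 3.94 (log2 2.73, 1.03 and 0.99, adjusted p = 1.87e-27, 5.78e-15 and 2.23e-14). CXCL1, a CXCR2 ligand, rose by 3.61, 1.15 and 1.38, and ANXA1, whose fragments act on FPR2, by 3.0, 2.20 and 2.13. Transcripts of these ligands and of their receptors rose in the same libraries, but this does not hold for every ligand. CCL5, which binds CCR1 and is named after its values were seen, fell with each guide while CCR1 rose. Its log2 fold changes were -1.34 with sgLuc, -0.71 with sgUTX_2 and -0.39 with sgUTX_4 (edgeR adjusted p = 1.32e-18, 2.19e-10 and 3.97e-05).

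Genes of the signal downstream moved less. The counts below stand beside 26.9% of all genes that rose and 26.2% that fell with sgLuc. With sgUTX_2 these shares were 14.1% and 13.7%, and with sgUTX_4 13.9% and 12.5%. All 22 signal transduction genes were tested, of which 12 rose and 3 fell with sgLuc, 8 and 4 with sgUTX_2, and 8 and 2 with sgUTX_4 (medians 0.20, 0.02 and 0.08). The 4 that fell with sgUTX_2 became 1 without the first sgUTX_2 DMSO or the first sgUTX_2 SGC0946 library, 2 without either sgLuc SGC0946 library and 1 with only the groups compared, and the 2 with sgUTX_4 became 4 with the guides as 1 group. The regulatory subunits of phosphoinositide 3-kinase gamma PIK3R6 and PIK3R5 rose with sgLuc by 3.88 (edgeR adjusted p = 1.32e-11) and 0.92 (adjusted p = 1.18e-13), and PIK3R5 rose by 0.65 and 0.60 with the UTX guides. PIK3R6 also rose by 2.03 and 3.91 with sgUTX_2 and sgUTX_4 (edgeR adjusted p = 0.0184 and 8.04e-05), from only 5 and 2 counts in their DMSO groups. Its difference of responses did not pass with either guide (-1.85 and 0.03, adjusted p = 0.125 and 0.933). PIK3R6 passed the filter only through SGC0946 libraries, so that its direction was partly set by the filter. GNG2, a G protein gamma subunit, rose by 2.28, 0.92 and 1.04. The Src family kinase gene FGR rose by 1.67 with sgLuc (adjusted p = 6.42e-22) and gave 0.02 and -0.01 with the UTX guides. Of the 13 genes of desensitization, 11 rose and 1 fell with sgLuc, and 6 rose and 4 fell with either UTX guide (medians 0.35, -0.03 and 0.06). The 4 with sgUTX_4 became 2 without the second sgUTX_4 SGC0946 library. GRK5 rose by 2.14, 1.06 and 1.53, RGS2, which shortens G protein signals, by 1.80, 0.69 and 0.89, and ARRB2, an arrestin, by 1.11, 0.37 and 0.31. GRK2, a widely expressed kinase of these receptors, fell by 1.15 with sgLuc, from 1820 ± 29.9 to 820 ± 6.03 CPM (adjusted p = 1.24e-17), and fell by 0.53 and by 0.49 with sgUTX_2 and sgUTX_4.

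**Figure D4:**
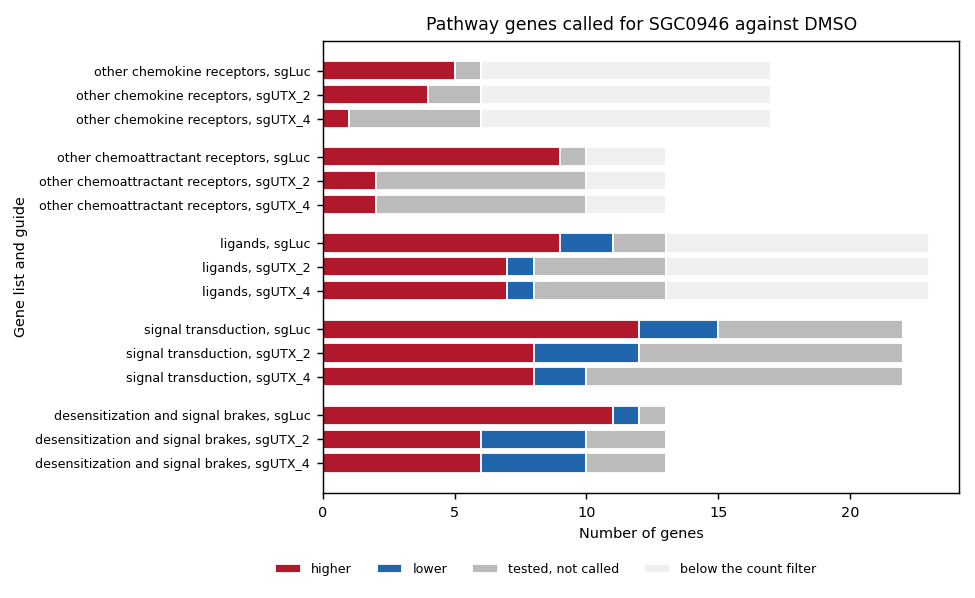
Number of genes in each of 5 pathway lists that rose, fell, were tested without passing or were below the count filter for SGC0946 against DMSO, by guide (horizontal axis: number of genes). In the list of other chemoattractant receptors 9 genes rose with sgLuc and 2 with either UTX guide. Some genes, such as PTGDR2 in this list, passed the filter on low counts only through SGC0946 libraries, which partly set their direction. Of all genes tested, 26.9% rose with sgLuc, 14.1% with sgUTX_2 and 13.9% with sgUTX_4.

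Markers of mature myeloid cells were measured in the same libraries. The 12 neutrophil markers summed to 4440 to 4560 CPM in sgLuc DMSO libraries and 12300 to 12800 with SGC0946, to 2590 to 2960 and 4730 to 5020 with sgUTX_2, and to 4390 to 5180 and 6810 to 7570 with sgUTX_4. S100A8, S100A9 and AZU1 made up most of each sum. Of the 12, 9 rose and 2 fell with sgLuc, 9 rose with sgUTX_2 and all 12 rose with sgUTX_4. FCGR3B, CEACAM8 and LCN2 had at most 5 counts in any DMSO group and passed the filter only through SGC0946 libraries. The direction of their change with SGC0946 was thus partly set by the filter. Over all genes 26.9% rose and 26.2% fell with sgLuc, 14.1% and 13.7% with sgUTX_2, and 13.9% and 12.5% with sgUTX_4. Against sgLuc in SGC0946, where all 8 receptors were lower with either guide, 3 neutrophil markers were higher and 8 lower with sgUTX_2, and 4 higher and 5 lower with sgUTX_4 (medians -2.22 and -0.25). In DMSO they were 1 higher and 6 lower with sgUTX_2, and 5 higher and 3 lower with sgUTX_4. Over all genes, 27.3% to 28.5% were higher and 29% to 32.2% lower in these comparisons against sgLuc. The granule protease gene ELANE, named after its values were seen, was 1.88 and 2.58 higher on the log2 scale with sgUTX_2 and sgUTX_4 in SGC0946 (edgeR adjusted p = 1.87e-22 and 4.74e-26). The 11 monocyte and macrophage markers summed to 591 to 656 and 10400 to 10600 CPM with sgLuc, 363 to 420 and 3050 to 3410 with sgUTX_2, and 567 to 687 and 4690 to 4870 with sgUTX_4. LYZ alone made up most of each sum, with 9350, 3070 and 4610 CPM in SGC0946 for sgLuc, sgUTX_2 and sgUTX_4. Of its exonic bases 34.0% are shared with another gene. Of the 11 markers, 7 rose and 1 fell with sgLuc, and 5 rose and 1 fell with either UTX guide. Against sgLuc in SGC0946, all 8 that were tested were lower with sgUTX_2 and with sgUTX_4. Among these, CD163 passed the filter only through sgLuc SGC0946, with 39 counts there against at most 5 in any other group. Its rise with sgLuc and its lower level with the UTX guides were thus partly set by the filter. CD163 was at 0 in sgUTX_2 DMSO and MRC1 in both sgUTX DMSO groups. The neutrophil genes FCGR3B and LCN2 were at 0 in sgUTX_2 DMSO. Lymphoid markers summed to 17.0 to 42.7 CPM over all libraries, erythroid and megakaryocyte markers to 4.48 to 20, and adherent cell markers, of which PECAM1 is also carried by myeloid cells, to 40.3 to 512. In bulk RNA, more cells that carry a receptor and more receptor RNA per cell cannot be told apart, and the part of these markers in the receptor results was not tested.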

How the data were processed

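Per the labels' protocols, NEBNext Ultra libraries of OCI-AML2 total RNA were sequenced as paired reads of 150 bases. The authors deposited raw read counts per gene, not normalized. STAR 2.5.1b and hg19 are named in the submitters' processing notes, but all 58735 identifiers match GENCODE 29 (GRCh38) and none is missing, so it is uncertain on which build counts were made, and positions are those of GENCODE 29. No source used here gives the counting program or its use of strand.

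Groups came from sample titles. The 2 libraries of each group differed beyond sampling (chi-square per gene 2.85 to 6.29 over genes with at least 20 counts) and were kept apart. All 12 were fitted in 6 groups with edgeR 4.0.16 in R 4.3.3 (TMM, filterByExpr, two-sided quasi-likelihood F-tests with robust fitting, 6 residual degrees of freedom, biological coefficient of variation 0.057), with Benjamini-Hochberg adjustment over 15060 genes and calls at under 0.05. Standard errors were derived from each F value (log2 fold change over the square root of F), and for a difference of responses from the 2 responses. They are too small where a change is large and a group has few counts, as for the responses of FPR1 and CXCR1. The p-values do not use them. CPM uses TMM-scaled counts in kept genes, and RPKM the GENCODE exon length. The 8 genes and all lists were chosen with earlier results of these data known. Apart from the 8, the text names up to 4 called genes per pathway list with the largest change in sgLuc cells (at least 10 counts in each of the 2 sgLuc groups) and the 2 genes nearest to each receptor in pattern. Some other list genes are named for their counts or after their values were seen. Results of a few single list genes are not reported here. Alternatives were a replicate block, library size only, DESeq2 1.42.0, no filter, 4 groups, only the groups compared, and leaving out each library.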

Additional observations from a re-analysis of the deposited data

Results flagged for a closer look

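The response to SGC0946 differed between a UTX guide and sgLuc in 11 tests of the difference itself (edgeR's quasi-likelihood test, Benjamini-Hochberg adjusted p under 0.05, 2 libraries per group), and each is therefore listed here on the log2 scale. With sgUTX_2 the difference was -4.00 for FPR1, -2.81 for FPR2, -3.57 for CXCR1, -0.58 for CXCR2 and -0.42 for CCR1. With sgUTX_4 it was -4.38 for FPR1, -2.92 for FPR2, -0.50 for CXCR2, -0.51 for CCR1, -0.95 for CCR2 and -0.79 for CX3CR1. All 11 are negative, so that each of these receptors rose less with the UTX guide than with sgLuc. FPR1, FPR2, CXCR2 and CCR1 passed with both guides, which share the sgLuc libraries.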

How the results depend on the processing

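The counts of 8 receptors higher with SGC0946 in sgLuc cells, 8 with sgUTX_2 and 8 with sgUTX_4, and of 8 lower with each UTX guide in SGC0946, were the same under library size only, DESeq2, no filter, 4 groups and only the groups compared. Leaving out 1 library at a time left them at 8, apart from 7 to 8 for SGC0946 with sgUTX_4. Replicate numbers did not pair the samples (r between -0.204 and 0.106 over 15 pairs of groups, 1 above 0.1), and the fit with a replicate block changed no call of a receptor, with 8 receptors higher in each response to SGC0946 and 5 and 6 differences of responses called for sgUTX_2 and sgUTX_4. With it, 3 and not 4 signal transduction genes fell with SGC0946 in sgUTX_2 cells.

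Receptors higher with sgUTX_2 than sgLuc in DMSO numbered 0, but 1 with library size only (FPR2, 0.45, adjusted p = 0.00706) and 0 to 1 with a library left out. For sgUTX_4 the count of 1 became 2 with library size only (CCR2, 0.27, adjusted p = 0.0437), 0 with 4 groups and 0 to 1 with a library left out. Between the UTX guides the count in DMSO was 1 with only the groups compared and 1 to 4 with a library left out, and in SGC0946 1 to 3 with a library left out. FPR2 was called higher with sgUTX_4 than with sgUTX_2 in DMSO with no filter (0.34, adjusted p = 0.0306), and CX3CR1 was not called there with only the groups compared (1.04, adjusted p = 0.108). Leaving out a library gave 5 to 6 receptors lower for sgUTX_2 against sgLuc in DMSO, and 4 to 5 and 5 to 6 smaller responses for sgUTX_2 and sgUTX_4. With 4 groups these 3 counts were 4 each.

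Some values that did not pass changed sign. CCR2 with sgUTX_4 in DMSO was 0.27 with library size only, 0.07 with no filter and 0.02 with only the groups compared (-0.12 to 0.11 with a library left out). The CXCR4 difference of responses for sgUTX_2 was -0.05 with library size only, -0.01 with DESeq2 and -0.03 with no filter (-0.04 to 0.10), and for sgUTX_4 -0.01 with library size only. That of CX3CR1 for sgUTX_2 was 0.00 with only the groups compared (-0.17 to 0.16). With a library left out, FPR1 with sgUTX_4 in DMSO ranged from -0.80 to 0.15, FPR2 and CXCR1 with sgUTX_2 from -0.02 to 0.39 and from -1.81 to 0.20, the CXCR1 difference of responses for sgUTX_4 from -2.84 to 1.87, and, between guides in DMSO, CXCR1 from -4.23 to 0.81 and CXCR2 from -0.13 to 0.30.

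With library size only, 66.1% and 67.6% of the genes called for sgUTX_2 and sgUTX_4 against sgLuc in DMSO were higher, against 46.7% and 47.7% with TMM. The shares were 64.8% and 64.4% against 48.4% and 48.5% in SGC0946, and 41.6% and 39.8% against 52.7% and 52.5% for the differences of responses. Genes higher in DMSO went from 4251 to 6423 and from 4293 to 6453, and genes lower with sgUTX_4 from 4705 to 3096. Between the UTX guides, genes lower in SGC0946 went from 211 to 365 with no filter, and in DMSO from 259 to 99 higher and 267 to 62 lower with only the groups compared. With a library left out these 4 counts ranged from 52 to 314 higher and 38 to 294 lower in SGC0946, and from 62 to 363 higher and 26 to 319 lower in DMSO, and genes lower with SGC0946 from 1333 to 2083 with sgUTX_2 and 1169 to 1989 with sgUTX_4. The cause of these shifts was not tested. Depth limits CXCR1 in DMSO, where no group held more than 5 counts.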
